A study of Homo sapiens with 16 samples.

Results

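The ADAM, ADAMTS and ADAMTS-like (ADAMTSL) genes encode a family of zinc metalloproteases and their protease-free relatives. Members were taken by gene symbol, as every gene named ADAM, ADAMTS or ADAMTSL followed only by digits, which gave 46 of the 60606 genes counted. Of these, 22 were ADAM, 19 ADAMTS and 5 ADAMTSL genes.

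Polyadenylated RNA had been sequenced from a pair of established clear cell renal carcinoma lines that carry SETD2, the gene of an enzyme that methylates histone H3 at lysine 36, in intact or disrupted form. The 786-O line came as SETD2 WT and SETD2 KO cells, each kept for 72 h in DMSO (the vehicle) or in 100 nM A1331852, which inhibits BCL-XL, a protein that blocks apoptosis, making 4 groups of 3 libraries. The A498 line came untreated, with 2 libraries labelled SETD2 deficient (genotype null) and 2 labelled add-back (genotype WT). All cells grew in RPMI with serum. Each genotype was 1 cell population, so loss of SETD2 and other differences between populations cannot be told apart, and how the knockout and the add-back were made was not given in the sources used here. By the labels, batch 1 held both DMSO libraries numbered 3 and all 6 A1331852 libraries, batch 2 the other 4 DMSO libraries, and batch 3 all of A498. The labels do not say whether replicates were grown separately. The p-values therefore speak only of library-to-library spread, which may be technical.

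ADAM proteins sit in the plasma membrane and cut the extracellular part off other membrane proteins, a step called shedding. ADAM17 and ADAM10 are the best known sheddases, acting on ligands of the EGF receptor, TNF, Notch and adhesion molecules. ADAMTS proteins are secreted, bind the matrix through thrombospondin repeats, and cut proteoglycans such as versican and aggrecan, procollagens or von Willebrand factor. ADAMTSL proteins share the matrix-binding part and lack the protease domain.

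Total counts per library ran from 14172118 to 36037616. Levels are given in CPM, here counts divided by the TMM-scaled library total and multiplied by 1e6, and changes as log2 fold changes ± standard error from edgeR's quasi-likelihood test. A gene was called when its p-value, adjusted by Benjamini-Hochberg over all genes tested, was under 0.05. SETD2 stood at 65.0 to 70.9 CPM in WT and 27.9 to 29.99 CPM in KO cells in DMSO, and at 63.0 to 71.2 against 29.4 to 52.5 CPM under A1331852. In A498 it did not separate the labels, at 41.1 and 59.4 CPM in the deficient and 44.9 and 53.8 CPM in the add-back libraries, with a log2 change of 0.00 ± 0.17 (adjusted p = 0.991, edgeR). The A498 groups are therefore named by their labels throughout. Of 12 markers of renal epithelium and clear cell carcinoma, 7 or 8 exceeded 1 CPM in every group. Endothelial and leukocyte markers summed to at most 2.51 and 1.48 CPM in any library.

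The members fell into an expressed and a silent set. In the edgeR fits, 25 members passed the low-count filter in 786-O, 28 in A498 and 30 with all libraries together. No counts at all were listed for 7 members (ADAM2, ADAM6, ADAM20, ADAM29, ADAM30, ADAM33 and ADAMTS20) among 342383611 counts, which allows up to 0.00876 CPM each over the 16 libraries. Another 9 (ADAM5, ADAM7, ADAM18, ADAMTS4, ADAMTS8, ADAMTS17, ADAMTS18, ADAMTS19 and ADAMTSL2) held 1 to 55 counts in all and were not tested. ADAMTS4 and ADAMTS8, which like ADAMTS5 cut aggrecan, were thus near 0 in both lines, with 10 and 8 counts in all.

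Levels were compared between genes per kilobase of exon. In WT DMSO cells the order was ADAM9, a broadly expressed sheddase, at 35.4 ± 24.7 CPM per kilobase (SD, n = 3), ADAM15, an adhesion-binding ADAM, at 33.9 ± 10.9, ADAM10 at 24.2 ± 8.63 and ADAMTS1, a versican-cutting protease, at 22.9 ± 6.54. The ranges of neighbours among these 4 overlapped, and ADAMTS1 lay above the next gene, ADAM19, at 10.5 ± 3.81 CPM per kilobase. ADAM9 also had the highest mean in the other 5 groups. In both DMSO groups this place rested on the batch 1 library. The 2 WT libraries of batch 2 held ADAM9 at 22.3 and 19.9 and ADAM15 at 39.9 and 40.4 CPM per kilobase, and without the batch 1 library the WT mean of ADAM9 was 21.1. The KO libraries of batch 2 held ADAM9 at 22.7 each and ADAM10 at 25.6 and 24.4 CPM per kilobase. It held 20.4% of the family's summed level per kilobase in WT DMSO cells, 25.7% in KO cells under A1331852 and 28.0% in A498 add-back cells. ADAM17 ranked lower, at 67.3, 64.9 and 109.6 CPM in WT DMSO cells and 154.6 and 136.3 CPM in A498 add-back cells.

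**Figure D1:**
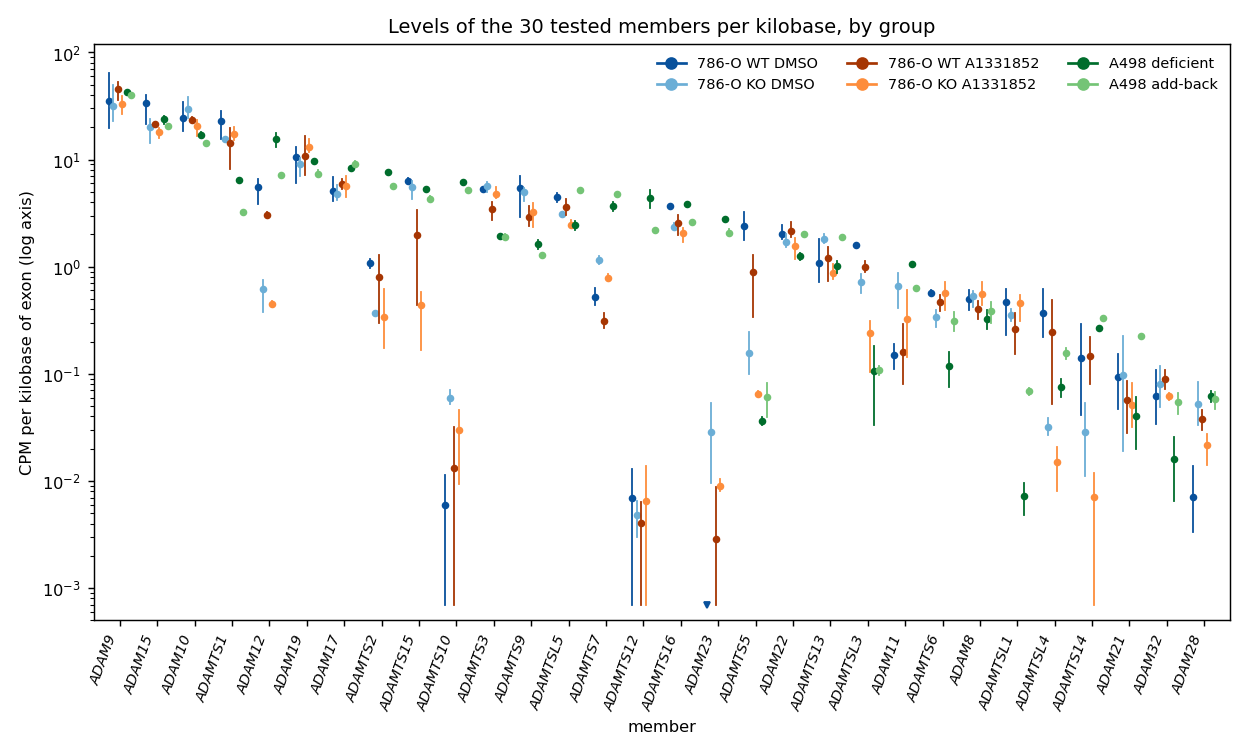
Level of each of the 30 tested members in the 6 groups, in CPM per kilobase of exon on a log axis. Points are group means, vertical lines run from the lowest to the highest library (drawn to 0.0007 where a library had no counts), and the triangle marks a group with no counts. ADAM9, ADAM15 and ADAM10 lie at the top in all groups, while ADAMTS10, ADAMTS12 and ADAM23 are high in A498 only.

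The lines differed in which members they held. ADAMTS12, which cuts cartilage oligomeric matrix protein, reached 20.1 to 49.4 CPM in A498 and at most 0.133 CPM in any 786-O library. ADAMTS10, a protease tied to fibrillin microfibrils, stood at 28.7 to 35.3 CPM in A498 and at most 0.404 CPM in 786-O. ADAM23, an ADAM without protease activity, stood at 12.3 to 18.2 CPM in A498 and at most 0.345 CPM in 786-O. The reverse held in WT DMSO 786-O cells for ADAMTSL3, at 14.6 to 15.97 CPM there and 0.322 to 1.76 CPM in A498, and for ADAMTS5, the main aggrecan-cutting protease of cartilage, at 17.4 to 32.0 against 0.326 to 0.799 CPM. It did not hold in all 786-O groups. KO cells under A1331852 read 1.01 to 3.05 CPM in ADAMTSL3 and 0.597 to 0.675 CPM in ADAMTS5, overlapping A498. Line and batch cannot be told apart in these levels, and they were not tested.

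Promoter sequences were taken from RefSeq (GRCh38.p14) as windows from 250 bases before to 50 after the transcription start. The table held 29 of the 46 members, ADAMTS10 with 2 windows, and ADAMTS5 was not among them. Windows are shown for 3 of the tabulated members called in both KO against WT comparisons of 786-O: ADAM12 and ADAMTSL3, which were lower in KO cells, and ADAMTS7, which was higher. The windows of ADAMTS14, ADAMTSL4 and ADAMTSL5, also called lower in both, are not shown. Capitals mark GGGCGG or its reverse complement. The ADAM12 window is chr10:126388428-126388727 on the minus strand, that of ADAMTSL3 is chr15:83653873-83654172 on the plus strand, and that of ADAMTS7 is chr15:78811415-78811714 on the minus strand.
ADAM12: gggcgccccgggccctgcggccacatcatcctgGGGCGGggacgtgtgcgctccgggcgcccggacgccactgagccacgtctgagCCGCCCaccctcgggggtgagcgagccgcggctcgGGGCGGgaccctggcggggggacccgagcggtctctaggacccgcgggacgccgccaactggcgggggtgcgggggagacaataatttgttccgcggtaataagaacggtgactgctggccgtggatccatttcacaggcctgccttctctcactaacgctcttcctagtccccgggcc
ADAMTSL3: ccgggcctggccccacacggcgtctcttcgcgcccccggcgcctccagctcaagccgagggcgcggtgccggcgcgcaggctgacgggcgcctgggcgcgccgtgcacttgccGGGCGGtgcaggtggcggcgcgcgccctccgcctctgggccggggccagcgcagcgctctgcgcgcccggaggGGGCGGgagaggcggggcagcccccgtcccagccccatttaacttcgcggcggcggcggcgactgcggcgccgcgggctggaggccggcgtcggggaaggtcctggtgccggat
ADAMTS7: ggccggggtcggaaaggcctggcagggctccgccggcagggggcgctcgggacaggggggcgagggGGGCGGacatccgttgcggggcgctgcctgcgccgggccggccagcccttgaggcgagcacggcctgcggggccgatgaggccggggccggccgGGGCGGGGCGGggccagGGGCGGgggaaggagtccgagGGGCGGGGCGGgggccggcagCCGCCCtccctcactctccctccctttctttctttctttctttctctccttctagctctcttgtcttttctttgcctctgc
GGGCGG was found 3 times in the ADAM12, 2 times in the ADAMTSL3 and 7 times in the ADAMTS7 window, on either strand and with overlaps counted. It was in 22 of the 30 member windows, against 45% of all 35116 windows in the table. The TATA box letters TATAAA were in none of the 3 windows on either strand and in 11.5% of all windows. The same held for the CCAAT box, found in 34.6% of all windows, and for the AP-1 motif TGANTCA, found in 7.71%. GC content was 71%, 80.7% and 74.3% in the same order, against a median of 58.7% over all windows and 74.2% over the 22 windows of tested members.

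The comparison of KO with WT 786-O cells in DMSO asked what differs with SETD2 status in untreated 786-O cells. ADAM12, ADAMTS5 and ADAMTSL4 were the members with the largest falls, each over 9-fold, and ADAMTS7 and ADAM11 were the members that rose. In all, 12 of 25 tested members were called (edgeR), 2 higher and 10 lower, where 18.5% of all 16260 genes tested were called, 8.29% higher and 10.2% lower. The median log2 change was -0.23 over the members and -0.02 over all genes. By subfamily, 3 of 10 ADAM, 6 of 11 ADAMTS and 3 of 4 ADAMTSL genes were called.

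Among the membrane proteases, ADAM12 (meltrin alpha, a sheddase of muscle, bone and placenta; GRCh38 chromosome 10, 126012381 to 126388477) stood at 60.8, 65.7 and 38.1 CPM in the WT libraries and at 7.39, 7.11 and 3.70 CPM in the KO libraries. The groups lay far apart in both batches, and the log2 change was -3.19 ± 0.13 (adjusted p = 1.42e-07, edgeR). It was -3.37 in batch 1, with 1 library each, and -3.12 in batch 2. ADAM15 (chromosome 1, 155050566 to 155062775) read 262.7, 266.2 and 140.5 CPM in WT and 145.7, 157.6 and 94.1 CPM in KO libraries. These ranges overlapped across batches, and KO lay below WT within each. Batch 1 held 1 library per genotype, so no member could overlap there. In batch 2, with 2 each, all KO libraries lay below all WT libraries in 15 of 25 members and above in 8. The log2 change of ADAM15 was -0.72 ± 0.11 (adjusted p = 0.00101, edgeR) and was no longer called without the batch term. ADAM11, which lacks protease activity and acts at synapses, rose from 0.715, 0.532 and 0.908 to 4.24, 3.25 and 1.97 CPM, a log2 change of 2.16 ± 0.55 (adjusted p = 0.0174, edgeR). Its groups did not overlap, and the call was lost without WT or KO DMSO replicate 1 or 2. ADAM9, ADAM10, ADAM17 and ADAM19 were not called, at -0.04 ± 0.18, 0.32 ± 0.14, -0.05 ± 0.16 and -0.15 ± 0.26 on the log2 scale.

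Among the secreted proteases that cut proteoglycans, ADAMTS5 (chromosome 21, 26917922 to 26967088) stood at 17.4, 20.5 and 32.0 CPM in WT and 0.981, 1.17 and 2.41 CPM in KO libraries. The log2 change was -3.98 ± 0.39 (adjusted p = 4.76e-05, edgeR), and every KO library lay below every WT library. Its neighbour ADAMTS1, 72.5 kb away on the same strand, read 181.2, 206.0 and 113.8 CPM in WT and 119.1, 117.4 and 107.8 CPM in KO libraries. Those ranges overlapped, and its log2 change of -0.49 ± 0.25 was not called (adjusted p = 0.204, edgeR). ADAMTS15 and ADAMTS9, of the same functional group, changed by -0.17 ± 0.49 and -0.04 ± 0.22 and were not called.

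The procollagen-processing proteases ADAMTS2 and ADAMTS14 were lower in KO cells, and the third, ADAMTS3, changed by 0.10 ± 0.15 and was not called. ADAMTS2 read 8.80, 9.54 and 10.5 CPM in WT and 3.41, 3.28 and 3.25 CPM in KO libraries, a log2 change of -1.52 ± 0.47 (adjusted p = 0.0428, edgeR). ADAMTS14 was near the limit of detection, with 47 WT and 12 KO counts, at -2.18 ± 0.54 (adjusted p = 0.0146). ADAMTS7, which like ADAMTS12 cuts cartilage oligomeric matrix protein (chromosome 15, 78759206 to 78811464), rose from 3.85, 3.42 and 4.86 to 8.23, 9.70 and 8.92 CPM. Every KO library lay above every WT library, and the log2 change was 1.17 ± 0.18 (adjusted p = 0.00105, edgeR). ADAMTS16 and ADAMTS6 fell by 0.66 and 0.74 on the log2 scale, to 13.7 ± 1.16 and 2.88 ± 0.51 CPM (SD, n = 3), the latter with an adjusted p of 0.04998 (edgeR), just under the threshold. ADAMTS13, the von Willebrand factor protease, read 4.07, 4.10 and 10.4 CPM in WT and 9.41, 11.4 and 10.4 CPM in KO libraries. It was not called (0.91 ± 0.31, adjusted p = 0.0628), and passed the threshold with replicate numbers as a block (0.90, adjusted p = 0.0336, edgeR).

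All 4 tested ADAMTSL genes had negative log2 changes, and 3 were called. ADAMTSL4, a fibrillin-binding protein, held 154 WT and 18 KO counts and changed by -3.31 ± 0.64 (adjusted p = 0.00409, edgeR). ADAMTSL3 (chromosome 15, 83654088 to 84039842) read 15.97, 14.6 and 15.7 CPM in WT and 8.37, 7.201 and 5.52 CPM in KO libraries, a log2 change of -1.13 ± 0.28 (adjusted p = 0.0139). ADAMTSL5 read 14.5, 17.5 and 16.9 against 10.9, 11.1 and 11.7 CPM, a log2 change of -0.53 ± 0.15 (adjusted p = 0.0326). Within these 3 genes no KO library reached the level of a WT library. ADAMTSL1 changed by -0.33 ± 0.32 and was not called.

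The count of 12 depended on single libraries, as did the share of all genes called. It fell to 5 without WT DMSO replicate 1 or KO DMSO replicate 2 (9.63% and 9.64% of all genes, against 18.5%). It was 7 when any other DMSO library was left out (9.85% to 10.6% of all genes). ADAM12 was called under every alternative run for this comparison, and ADAMTS5, ADAMTS7 and ADAMTSL4 under all but batch 1 alone. ADAMTSL3 and ADAMTS14 lost the call when WT DMSO replicate 1, WT DMSO replicate 3, KO DMSO replicate 2 or KO DMSO replicate 3 was left out, and ADAMTS2, ADAMTS6, ADAMTS16 and ADAMTSL5 without any 1 of the 6 DMSO libraries, of which ADAMTS2, ADAMTS6 and ADAMTSL5 also without some A1331852 libraries. Of 6 fibroblast markers, 3 were tested, and 0 were called higher and 1 lower in KO cells. That was LUM, which fell from 5.97 ± 2.66 to 1.60 ± 0.66 CPM (SD, n = 3). The 6 fibroblast markers summed to 13.4 to 14.5 CPM in WT and 9.12 to 11.3 CPM in KO libraries, with COL3A1, COL1A2 and DCN at or under 0.0577 CPM in each, and their part in the result was not tested.

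**Figure D2:**
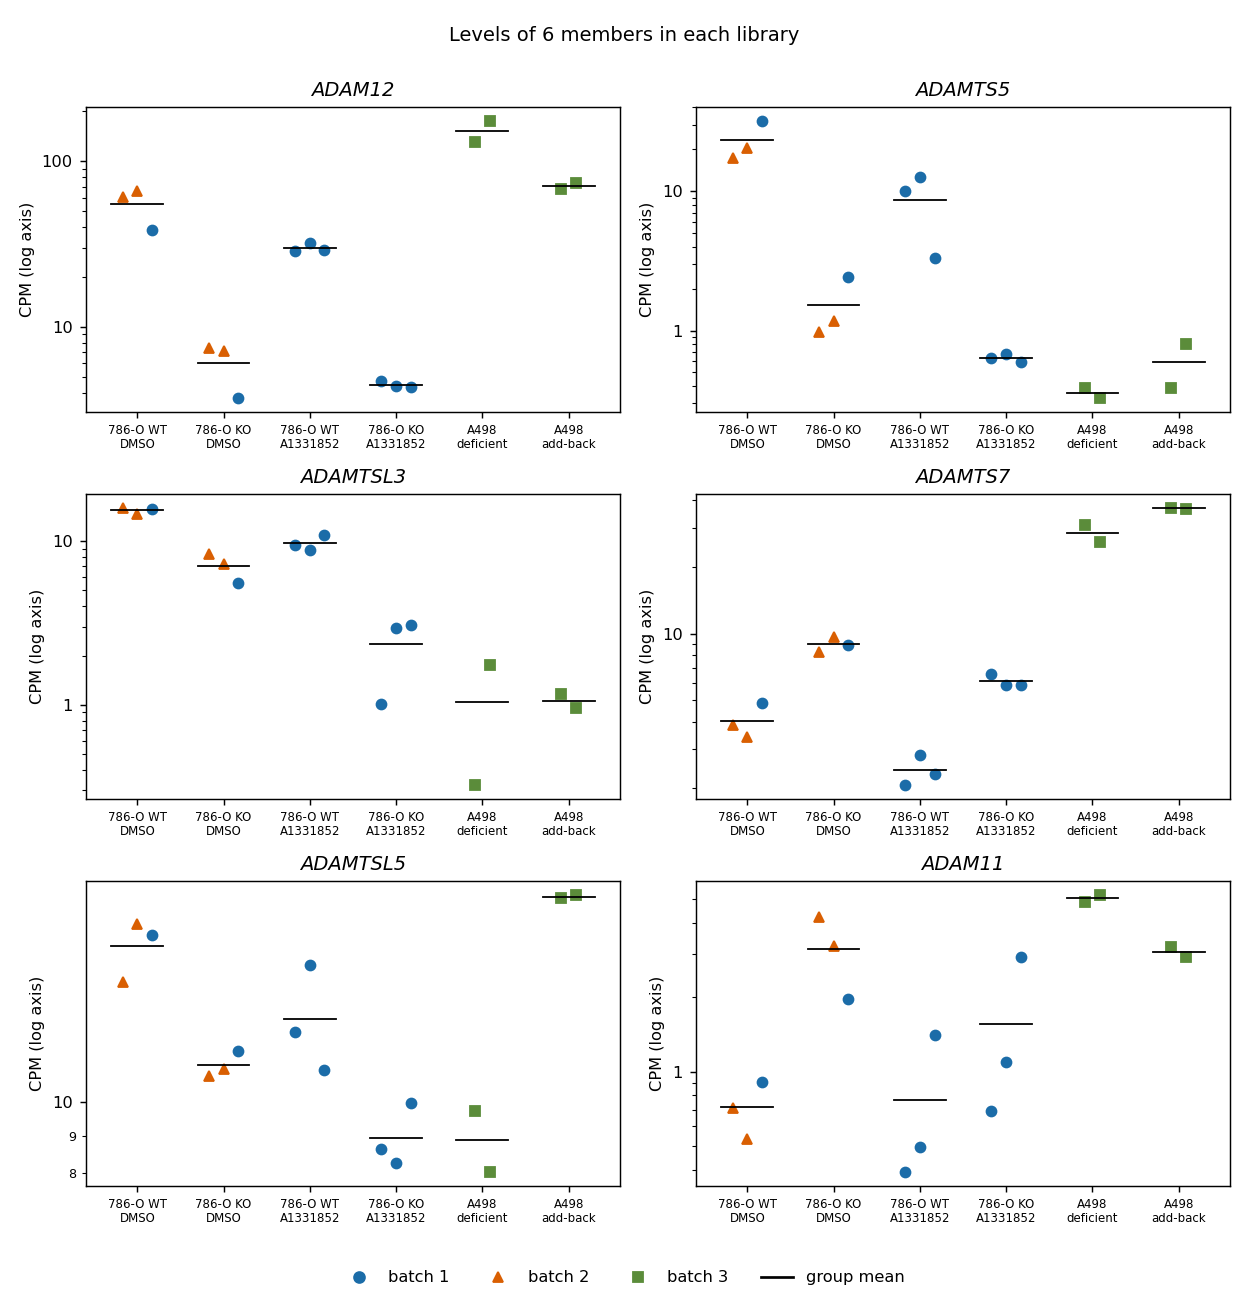
Level of 6 members in each library, in CPM on a log axis, with marker shape for the batch and a line at the group mean. In ADAM12, ADAMTS5 and ADAMTSL3 each KO group of 786-O lies below its WT group and in ADAMTS7 above it, while ADAM12 is higher in the A498 libraries labelled deficient.

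KO and WT 786-O cells were also compared under A1331852. ADAM12, ADAMTS5, ADAMTSL3, ADAMTSL4 and ADAMTS14 were again lower and ADAMTS7 higher in KO cells, and ADAMTS15 was called lower here. Of 25 tested members, 9 were called (edgeR), 2 higher and 7 lower, where 28.2% of all genes tested were called, 13.2% higher and 15% lower. With replicate numbers as a block the count was 14, 4 higher and 10 lower, where the share of all genes called also rose, to 38.6%. The added calls were ADAM9 (-0.49, adjusted p = 0.00860), ADAM11 (1.02, 0.0432), ADAM22 (-0.46, 0.0114), ADAMTS2 (-1.23, 0.00671) and ADAMTSL1 (0.84, 0.0218).

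ADAM12 stood at 28.6, 31.9 and 28.9 CPM in WT and 4.68, 4.36 and 4.31 CPM in KO libraries under A1331852, a log2 change of -2.74 ± 0.13 (adjusted p = 3.22e-07, edgeR). ADAMTS5 read 10.1, 12.6 and 3.30 against 0.638, 0.675 and 0.597 CPM (-3.76 ± 0.45, adjusted p = 1.26e-04). ADAMTSL3 read 9.54, 8.78 and 10.9 against 1.01, 2.96 and 3.05 CPM (-2.07 ± 0.31, adjusted p = 5.74e-04). No KO library of these 3 members reached a WT library. ADAMTS7 read 2.06, 2.84 and 2.32 CPM in WT and 6.59, 5.86 and 5.84 CPM in KO libraries, again without overlap and in the opposite direction (1.33 ± 0.19, adjusted p = 4.69e-04, edgeR). ADAMTS14 was counted 48 times in WT and 2 times in KO libraries, a ratio of 22.6 with an exact 95% counting interval of 5.92 to 192. ADAMTSL4 had 86 and 5 counts, and ADAMTSL5 fell by 0.54 on the log2 scale (adjusted p = 0.0250).

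ADAMTS15 and ADAMTS3 were called here and not in DMSO, and the test of that difference is the interaction given with the drug responses. ADAMTS15 read 20.2, 13.0 and 2.63 CPM in WT and 1.01, 3.48 and 3.45 CPM in KO libraries, so that WT replicate 3 fell among the KO libraries. Its log2 change was -2.19 ± 0.58 (adjusted p = 0.0149, edgeR), or -2.66 (adjusted p = 1.07e-04) without that library, and the call was lost without WT or KO A1331852 replicate 1. ADAMTS3 rose from 24.0 ± 4.61 to 33.7 ± 4.37 CPM (SD, n = 3), at 0.49 ± 0.15 (adjusted p = 0.0301), and was not called without WT replicate 3 (adjusted p = 0.0645), nor without WT A1331852 replicate 2, KO A1331852 replicate 2 or WT DMSO replicate 1. ADAMTSL5 lost its call when replicate 2 of either genotype or KO replicate 1 under the drug was left out. ADAMTS15, ADAMTS3 and ADAMTSL5 were also not called in batch 1 alone or with only the groups compared. ADAMTS15 was lost with limma voom too, ADAMTS3 and ADAMTSL5 without the batch term, and ADAMTSL5 with no low-count filter. The calls of ADAM12, ADAMTS5, ADAMTS7, ADAMTS14, ADAMTSL3 and ADAMTSL4 held under every alternative that gave a value. Both KO against WT comparisons came from 1 fit with shared terms, and 7 of 25 members were called in the same direction in both and 0 in opposite directions. Over all 16260 genes these shares were 13.1% and 0.0738%. The fibroblast markers summed to 9.19 to 13.6 CPM in WT and 4.15 to 4.57 CPM in KO libraries here. Of 3 tested, 0 were called higher and 2 lower in KO cells, LUM again (-2.70 ± 0.24) and PDGFRB. The part of these markers in the result was not tested.

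A1331852 was compared with DMSO in WT and in KO cells. Both comparisons set drug libraries of batch 1 against DMSO libraries mostly of batch 2. They came from 1 fit with a shared batch term and spread, so the results in WT and KO cells are not independent. In KO cells ADAMTS15, ADAM10, ADAM9, ADAMTS5, ADAMTS13 and ADAMTSL3 were lower and ADAM19 higher under the drug. In WT cells 0 of 25 members were called by edgeR, and 6 had an unadjusted p under 0.05, while DESeq2 called 1 and limma voom 0. Of all genes tested, 0.141% were called there by edgeR, 0.0369% higher and 0.105% lower. In KO cells 7 of 25 members were called, against 13.5% of all genes, with 1 higher (6.46%) and 6 lower (7.08%). The members had a median log2 change of -0.33 (WT) and -0.39 (KO), against 0.00 and 0.01 over all genes, and 23 of 25 log2 changes were negative in WT and 18 of 25 in KO cells.

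ADAMTS15 showed the largest drop among the called members. It read 38.0, 36.8 and 25.7 CPM in KO DMSO libraries and 1.01, 3.48 and 3.45 CPM under the drug, a log2 change of -3.47 ± 0.66 (adjusted p = 0.00666, edgeR). All drug libraries lay below all DMSO libraries, and the log2 ratio within batch 1 was -3.28, resting on 1 DMSO library, without which the call was lost. In WT cells it read 40.3, 35.7 and 36.7 against 20.2, 13.0 and 2.63 CPM, also without overlap, at -1.46 ± 0.59 (adjusted p = 0.331). ADAMTS8, whose gene starts 20 kb from ADAMTS15 on the other strand, held 8 counts in all.

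ADAM10 read 408.8, 389.2 and 616.4 CPM in KO DMSO libraries and 264.2, 355.7 and 373.7 CPM under the drug, without overlap. Its log2 change was -0.97 ± 0.16 (adjusted p = 0.00395, edgeR), and -0.90 as a ratio within batch 1. The call was lost without the batch term (-0.51, adjusted p = 0.210) and in a fit of batch 1 alone (-0.89, adjusted p = 0.157). In WT cells the change was -0.49 ± 0.16 (adjusted p = 0.239), with 545.6 CPM in the batch 1 DMSO library and 351.9 to 398.8 CPM under the drug.

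ADAM9 depended on the batch term. It read 402.2 and 401.7 CPM in KO DMSO libraries of batch 2, 882.7 CPM in the batch 1 library, and 468.3, 580.8 and 689.5 CPM under the drug. The fit with the batch term gave -0.78 ± 0.22 (adjusted p = 0.0357, edgeR) and without it 0.04 (adjusted p = 0.963). The call was also lost with the replicate block (-0.55, adjusted p = 0.0568), with only the groups compared (-0.62, adjusted p = 0.142) and in batch 1 alone (-0.61, adjusted p = 0.443). The batch gap was alike in WT cells, with 395.5 and 351.8 CPM in batch 2 and 1131 CPM in batch 1. ADAM32, a sperm-associated gene that begins 1.54 kb downstream of ADAM9 on the same strand, was at most 1.18 CPM in any library.

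ADAM19, a sheddase of neuregulin, read 80.1, 76.0 and 53.6 CPM in KO DMSO libraries, the last of them from batch 1, and 119.4, 90.5 and 93.5 CPM under the drug (1.07 ± 0.32, adjusted p = 0.0457, edgeR). ADAMTS5 read 0.981, 1.17 and 2.41 CPM in KO DMSO libraries and 0.638, 0.675 and 0.597 CPM under the drug, and fell by 1.77 on the log2 scale (adjusted p = 0.0496). Neither gene's groups overlapped, and in both the batch 1 DMSO library lay farthest from the drug libraries. ADAMTS13 fell by 1.58 (adjusted p = 0.0214) and ADAMTSL3 by 1.46 (adjusted p = 0.0233). The count of 7 became 2 without WT or KO DMSO replicate 3 (3.53% and 4.68% of all genes called, against 13.5%). It became 3 without either WT DMSO library of batch 2 or KO DMSO replicate 1 (7.78% to 8.03% of all genes). It became 4 without KO DMSO replicate 2 or KO A1331852 replicate 1 or 2 (7.94% to 9.12% of all genes). Of the 7 calls, that of ADAM10 was lost with no single library left out and that of ADAMTS15 only without KO DMSO replicate 3. ADAMTS13 lost its call without WT DMSO replicate 3 or KO A1331852 replicate 1 or 2, ADAMTSL3 without any DMSO library but KO replicate 2, and ADAM9, ADAM19 and ADAMTS5 without any 1 of the 6 DMSO libraries or KO A1331852 replicate 1 or 2. ADAM19 also lost it without WT A1331852 replicate 2, and ADAMTS5 without replicate 1 of the treated WT cells or replicate 3 of the treated KO cells.

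**Figure D3:**
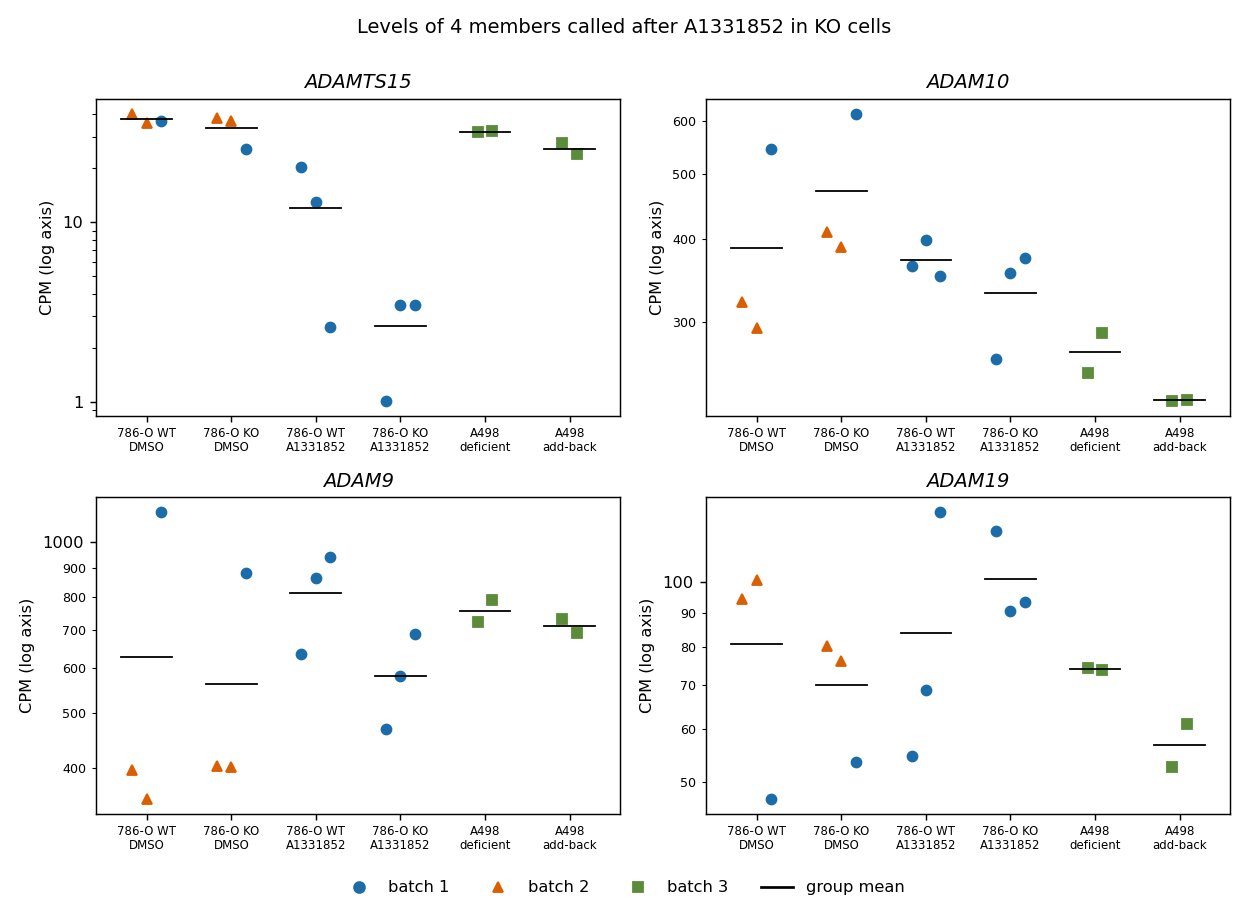
Level of 4 members called after A1331852 in KO cells, in CPM on a log axis, with marker shape for the batch and a line at the group mean. In batch 1 the KO drug libraries lie below the single KO DMSO library in ADAMTS15, ADAM10 and ADAM9 and above it in ADAM19, and ADAM9 and ADAM10 differ between batches 1 and 2 in DMSO.

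WT A1331852 replicate 3 stood apart from the other libraries of its group in several members. It read 2.63 CPM against 13.0 and 20.2 in ADAMTS15, 60.1 against 108.5 and 143.2 in ADAMTS1, and 127.9 against 54.7 and 68.8 CPM in ADAM19. Without it, ADAMTS5 was called lower under the drug in WT cells too (-1.59, adjusted p = 0.00634, edgeR). With it the log2 change was -1.99 ± 0.41 (adjusted p = 0.102), from 17.4, 20.5 and 32.0 CPM in DMSO to 10.1, 12.6 and 3.30 CPM, without overlap. Calls for the drug in KO cells were 10 without this library (21.4% of all genes, against 13.5%), with ADAM15, ADAMTS6 and ADAMTS7 added. Those between KO and WT under the drug were 11 (32.5% of all genes, against 28.2%), with ADAM11, ADAM19 and ADAMTS16 added and ADAMTS3 lost.

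The difference between the drug responses of KO and WT cells was tested as an interaction. No member of 25 was called by edgeR, 10 had an unadjusted p under 0.05, and 0.295% of all genes tested were called, 0.203% higher and 0.0923% lower. DESeq2 and limma voom also called 0 members. ADAMTS15 differed by -2.02 ± 0.76 (adjusted p = 0.348), or by -2.48 (adjusted p = 0.00803, called) without WT A1331852 replicate 3. ADAM10 differed by -0.48 ± 0.19 (adjusted p = 0.377) and ADAM12 by 0.45 ± 0.17 (adjusted p = 0.359). Members called in KO and not in WT cells are therefore not shown to respond differently in the fit with all libraries.

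**Figure D4:**
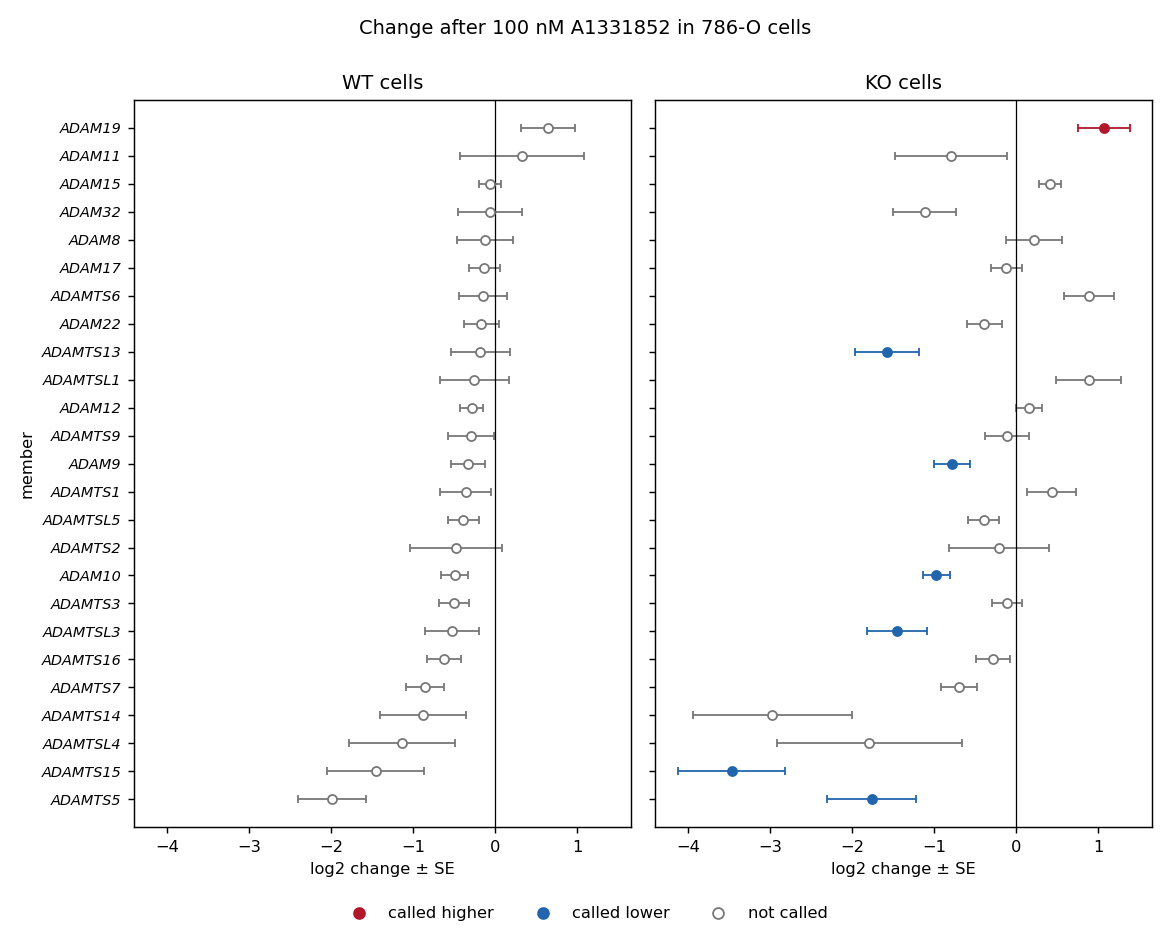
Log2 change of each of the 25 tested members after A1331852 in WT (left) and KO (right) 786-O cells, with the standard error from edgeR, filled where called. In WT cells 23 of 25 points lie left of 0 and none is called, while in KO cells 6 members are called lower and ADAM19 higher.

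In A498 the libraries labelled deficient were compared with those labelled add-back. ADAM12, ADAMTS1 and ADAMTS12 were the called members with the largest rises in the deficient libraries, and ADAMTSL1, ADAM21 and ADAMTS6 had the largest falls. In all, 12 of 28 tested members were called (edgeR), 6 higher and 6 lower, where 30.2% of all 15424 genes tested were called, 15.1% in each direction. The median log2 change was 0.07 over the members and -0.01 over all genes. SETD2 counts did not separate these labels, as given above.

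ADAM12 read 129.99 and 174.5 CPM in the deficient and 68.2 and 73.7 CPM in the add-back libraries, a log2 change of 1.08 ± 0.15 (adjusted p = 9.6e-05, edgeR). ADAMTS1 read 46.7 and 48.2 against 24.9 and 22.1 CPM (0.99 ± 0.14, adjusted p = 1.28e-04), and ADAMTS12 34.1 and 49.4 against 20.1 and 21.8 CPM (0.97 ± 0.17, adjusted p = 7.98e-04). In each of these the deficient libraries lay above both add-back libraries. With 2 libraries per label most tested members lay apart, uncalled ones such as ADAM15, ADAM17 and ADAM10 among them. ADAM11, ADAMTS16 and ADAMTS2 rose by 0.70 ± 0.23, 0.54 ± 0.15 and 0.40 ± 0.13. Their calls were lost without either add-back library.

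ADAMTSL5 read 9.73 and 8.02 CPM in the deficient and 18.9 and 19.1 CPM in the add-back libraries, a log2 change of -1.12 ± 0.17 (adjusted p = 2.04e-04, edgeR). ADAMTS13 read 6.51 and 5.02 against 11.2 and 10.4 CPM (-0.93 ± 0.19, adjusted p = 0.00269). ADAM22, a protease-free ADAM that binds the secreted LGI proteins, read 15.8 and 18.5 against 28.0 and 27.0 CPM (-0.70 ± 0.15, adjusted p = 0.00320). None of these groups overlapped, which with 2 libraries per label was also so for most tested members. ADAMTS6 fell by 1.44 on the log2 scale, from 3.26 and 2.13 to 0.644 and 1.37 CPM, and lost the call without add-back replicate 1. ADAMTSL1 held 3 counts in the deficient and 34 in the add-back libraries, a ratio of 9.48 with an exact 95% counting interval of 2.98 to 48.2, and ADAM21 held 4 and 27 counts, with a call lost without deficient replicate 1 or either add-back library. Leaving out add-back replicate 1, which left 1 library in that group, reduced the number of calls, as it did over all genes. The calls of ADAM12, ADAM22, ADAMTS1, ADAMTS12, ADAMTS13, ADAMTSL1 and ADAMTSL5 held under every alternative run. The fibroblast list summed to 50.2 to 66.6 CPM in the deficient and 44.2 to 48.6 CPM in the add-back libraries. Nearly all of it was COL1A1, with COL1A2 at 0 in both groups. Of the 2 fibroblast markers tested, 0 were called higher and 1 lower in the deficient libraries, PDGFRB. The part of these markers in the result was not tested.

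The SETD2 comparison of 786-O in DMSO and that of A498 were set against each other in a fit of all 16 libraries. Of the 23 members tested in both lines, 3 were called in the same direction in both (ADAM11 higher, ADAMTS6 and ADAMTSL5 lower) and 3 in opposite directions (ADAM12, ADAMTS2 and ADAMTS16, all lower in 786-O KO and higher in A498 deficient cells). These are 13% of the members each way, against 4.62% and 2.37% of the 14325 genes tested in both. The difference between lines was called for 12 of 30 tested members (edgeR), 6 more positive and 6 more negative in 786-O, against 13.2% of all 17868 genes tested, 6.12% and 7.1% by direction. Of these 12, ADAM23, ADAM28 and ADAMTS10 had too few counts to be tested in 786-O alone and ADAMTS5 in A498 alone, so they entered this fit through 1 line. The other 8 were among the 23 members tested in both lines, where 14.7% of all genes tested in both were called. ADAM12 had the largest difference among members more negative in 786-O, at -4.29 ± 0.20 (adjusted p = 2.98e-09). ADAMTS2 and ADAMTS16 differed by -1.94 ± 0.60 and -1.23 ± 0.25, ADAMTS1 by -1.52 ± 0.37 and ADAMTS7, higher in 786-O KO cells and at -0.39 ± 0.14 in A498 (not called, adjusted p = 0.0539), by 1.53 ± 0.24 (adjusted p = 7.62e-04). The differences of ADAM12, ADAMTS7 and ADAMTS16 were called under every alternative run. That of ADAM15 was called in 21 of 22 alternatives, ADAMTS1 in 20, ADAMTS13 in 16, ADAMTSL1 in 10 and ADAMTS2 in 7. The ADAMTS2 difference was lost with DESeq2, without the batch term and without any 1 of the DMSO libraries, among others. The count of 12 fell to 8 to 10 without any 1 of the 6 DMSO libraries (8.46% to 10% of all genes called, against 13.2%). It also fell without any 1 of the A498 libraries, which left 1 library in that group, as did the share of all genes called.

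**Figure D5:**
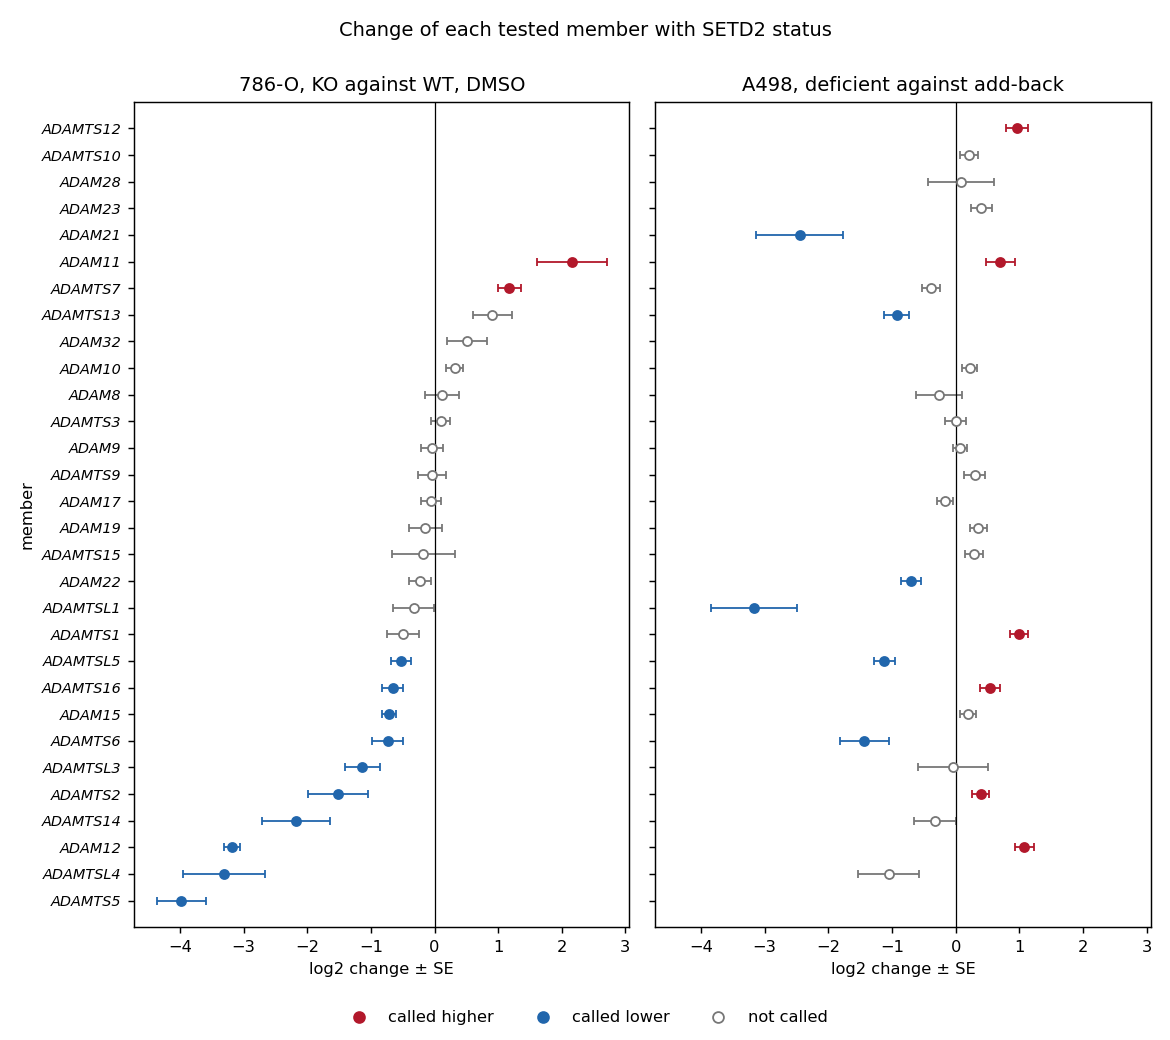
Log2 change of each tested member between KO and WT 786-O cells in DMSO (left) and between A498 libraries labelled deficient and add-back (right), with the standard error from edgeR, filled where called. ADAM12, ADAMTS2 and ADAMTS16 are called lower on the left and higher on the right, and a member with no point was not tested in that line.

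Genes that act with the proteases were counted from fixed lists. Their counts stand beside the shares of all genes given above, which were 18.5% for KO against WT in DMSO, 28.2% under A1331852, 13.5% for the drug in KO cells and 30.2% in A498. Of 16 activators and partners of sheddases, which include the iRhom proteins RHBDF1 and RHBDF2 that carry ADAM17 to the surface, the C8 tetraspanins that escort ADAM10, and the proprotein convertases that remove the prodomain, 15 were tested in 786-O. In KO against WT cells in DMSO 1 was called, TSPAN14, which fell by 0.51. Under A1331852 RHBDF1 (0.85 ± 0.17) and FURIN (0.57 ± 0.13) were higher and TSPAN33 lower (-0.30 ± 0.10), with a list median of 0.09. With the drug in KO cells 2 were higher and 3 lower. The first 4 by p were the convertase PCSK5 (-1.41 ± 0.21) and the tetraspanins TSPAN10 (-1.23 ± 0.27), TSPAN33 (-0.51 ± 0.12) and TSPAN5 (1.12 ± 0.28). In A498, where all 16 were tested, 4 rose and 5 fell in the deficient libraries. PCSK5 (1.05 ± 0.12) and TSPAN5 (0.89 ± 0.15) were higher there, and RHBDF1 and FURIN lower (-1.12 ± 0.14 and -0.86 ± 0.14), with a difference between lines of 1.56 ± 0.25 for RHBDF1 (adjusted p = 7.79e-04, edgeR). Of 7 inhibitors only 3 were tested. TIMP1 was higher in KO than WT cells under the drug (0.59 ± 0.16), and RECK was lower in the deficient A498 libraries (-0.89 ± 0.15).

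The ligands of the EGF receptor family, which ADAM17 and ADAM10 release, were called in each comparison but the drug in WT cells. Of 8 tested in 786-O, 5 were higher in KO than WT cells under A1331852 (NRG2, BTC, EREG and HBEGF among them) and 5 were higher with the drug in KO cells (EREG, AREG, NRG2 and HBEGF among them), with list medians of 1.34 and 1.21 against -0.01 and 0.01 over all genes. EREG (epiregulin) read 71.4, 66.8 and 28.8 CPM in KO DMSO libraries and 297.6, 305.9 and 548.4 CPM under the drug (4.24 ± 0.66, adjusted p = 0.00265, edgeR). HBEGF read 22.0, 21.6 and 36.6 against 81.3, 67.8 and 46.0 CPM (0.85 ± 0.22, adjusted p = 0.0263), and 30.4, 37.0 and 53.0 against 35.2, 39.4 and 36.1 CPM in WT cells. Its response differed between KO and WT cells in the fit with all libraries (interaction 1.41 ± 0.25, adjusted p = 0.0410, edgeR). It was the only 1 of the 8 ligands for which that difference was called. No gene of any kind was called for the interaction without KO DMSO replicate 1 or without KO DMSO replicate 2, so this call did not hold there. In DMSO HBEGF was lower and EGF higher in KO cells. In A498, 3 of 7 ligands were higher and 2 lower in the deficient libraries. HBEGF stood there at 3.61 and 2.28 against 21.7 and 19.0 CPM (-2.81 ± 0.22), and EGF was also lower (-1.05 ± 0.20), while AREG (2.57 ± 0.34) and NRG1 (0.63 ± 0.14) were higher. ADAM17 itself was not called in any comparison.

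Of 25 other shed membrane proteins, 20 were tested in 786-O. In DMSO 0 were higher and 4 lower in KO cells (L1CAM, JAG1, NOTCH2 and TNFRSF1A), and under A1331852 3 were higher, CD44 and SDC1 among them, and 2 lower. With the drug in KO cells 5 were higher, PRNP, MET, CD44 and SDC1 among them, and 0 lower. In WT cells 0 were higher with the drug and 1 lower, L1CAM. In A498 5 of 22 rose and 9 fell in the deficient libraries, with CX3CL1, cut by ADAM10 and ADAM17, at -2.60 ± 0.16 and L1CAM at -1.30 ± 0.13. Only 5 of 16 matrix substrates of ADAMTS proteases were tested in each line. In KO against WT cells 0 were higher and 1 lower in DMSO and 0 and 3 under A1331852, and in A498 2 were higher and 0 lower. Biglycan (BGN), a small proteoglycan, led both 786-O comparisons, at 114 WT and 22 KO counts in DMSO (-2.61 ± 0.47, adjusted p = 0.00273, edgeR) and 43 and 1 under the drug. Versican (VCAN) and fibronectin (FN1) were lower in KO than WT 786-O cells under the drug, at -0.72 ± 0.20 and -0.82 ± 0.21, and higher in the deficient A498 libraries, at 1.36 ± 0.14 and 1.15 ± 0.15. Among 6 genes of ADAMTS glycosylation, uptake and relatives, PAPLN (papilin, an ADAMTS-like matrix protein) read 6.40, 5.97 and 26.1 CPM in WT and 0.202, 0.247 and 0.246 CPM in KO DMSO libraries (-5.40 ± 0.41, adjusted p = 8.37e-06, edgeR). It was higher in the deficient A498 libraries (0.81 ± 0.19), with a difference between lines of -6.25 ± 0.50. THSD4 (ADAMTSL6) was higher in KO cells in DMSO (0.75 ± 0.15) and under the drug (1.46 ± 0.15).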

How the data were processed

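RNA-seq read counts per gene from 16 libraries were used as the authors deposited them. Per the file headers, reads over exons were counted with featureCounts 1.5.0-p3, strand setting 2 (reverse stranded) and GENCODE release 41. Per the submitters' processing notes, STAR, MultiQC 1.7 and DESeq2 were used on GRCh38, and no aligner version was given in the sources used here. Each library listed the same 60606 genes, and its total was 14172118 to 36037616 counts. A count of 0 allows up to 3 counts, or 0.0866 to 0.199 CPM per library; this floor covers counting error only.

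From these counts, CPM was computed as 1e6 times the count over the product of library total and TMM factor, with TMM factors from all 16 libraries. CPM per kilobase used the exon length in the files. Tests were edgeR's quasi-likelihood F test (edgeR 4.0.16, limma 3.58.1, R 4.3.3) after filterByExpr with a minimum count of 10. Adjustment was by Benjamini-Hochberg over all genes tested, with a threshold of 0.05. One fit with a batch term held the 12 libraries of 786-O, another the 4 of A498, and the last fit all 16, for the difference between lines. The standard error is the log2 change divided by the square root of F. On simulated counts for KO against WT in DMSO (15952 genes), 60% of changes of log2 size 1 and 95% of size 2 were recovered, with 8 false calls. For A498 (15040 genes) these were 79.4% and 93.7%, with 11 false calls. The simulation changed at most 100 genes of each size and held no batch or drug effect, so the rates may differ in the real data.

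Whether replicate numbers pair WT and KO libraries of 786-O was checked by correlating deviations from group means. Equal numbers correlated at 0.496 to 0.724 in DMSO and 0.228 to 0.465 under A1331852. In DMSO, WT replicate 1 with KO replicate 2 and WT replicate 2 with KO replicate 1 reached 0.497 and 0.549. Numbers 1 and 2, which share batch 2 there, were thus not told apart. Under A1331852 these unequal pairs reached 0.191 and 0.124, and number 3 correlated with the other numbers at -0.363 to -0.272.

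Alternatives were DESeq2 1.42.0, upper-quartile factors, limma voom, other filters, no batch term, single batches, only the groups compared, a replicate block and leaving out libraries. Members called in a comparison were named with their change, and of each list up to 4 called genes with the smallest adjusted p. The members and lists were chosen with earlier results of these data known. Promoter windows came from a RefSeq table for GRCh38.p14. Protein sequences and a genome were not used here.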

Additional observations from a re-analysis of the deposited data

Results flagged for a closer look

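For 12 members the change with SETD2 status differed between 786-O in DMSO and A498, by a test of the difference itself in 1 fit of all 16 libraries (edgeR, adjusted p under 0.05). The A498 labels were not separated by the SETD2 counts, and line and batch cannot be told apart.

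The log2 change was more negative in 786-O for ADAM12 (-4.29), ADAMTS5 (-3.26), ADAMTS2 (-1.94), ADAMTS1 (-1.52), ADAMTS16 (-1.23) and ADAM15 (-0.94). It was more positive in 786-O for ADAM23 (4.34), ADAMTS10 (3.17), ADAMTSL1 (2.83), ADAM28 (2.78), ADAMTS13 (1.80) and ADAMTS7 (1.53). The differences of ADAMTS2 and ADAMTSL1 were called in only 7 and 10 of 22 alternatives. ADAM23, ADAMTS10 and ADAM28 did not pass the low-count filter in 786-O alone, nor ADAMTS5 in A498 alone, so these 4 are given as values from which nothing is drawn. In DMSO ADAM23 was counted 0 times in WT and 14 times in KO libraries, at least 3.95-fold higher against a floor of 3 counts over the group. ADAMTS10 had 2 and 30 counts, a ratio of 12.7 with an exact 95% counting interval of 3.22 to 110, and ADAM28 had 4 and 39 counts. ADAMTS5 had 11 counts in the deficient and 22 in the add-back libraries.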

How the results depend on the processing

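Members called in KO against WT cells in DMSO (12) were 7 when genes needed a mean count of 50, 7 without the batch term, 1 in batch 1 alone and 22 of 26 in batch 2 alone, where the share of all genes called was 18.3%, 9.16%, 0.305% and 55.7%, against 18.5%. Under A1331852 (9) they were 4 with only the groups compared, 14 with the replicate block and 15 without both A1331852 libraries numbered 3 (15%, 38.6% and 36.5% of all genes, against 28.2%). For the drug in WT cells (0) they were 1 with DESeq2, 3 with no low-count filter, 6 with the replicate block and 1 without both libraries numbered 3 (2.89%, 2.66%, 17.4% and 1.27%, against 0.141%). For the drug in KO cells (7) they were 2 without the batch term, 0 in batch 1 alone, 4 with only the groups compared and 13 without both libraries numbered 3 (9.16%, 0.49%, 6.5% and 31%, against 13.5%). The interaction (0) gave 4 with no low-count filter and 2 without both libraries numbered 3 (1.9% and 5.51%, against 0.295%), and the difference between lines (12) gave 6 without the batch term (5.97%, against 13.2%).

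Leaving out 1 library at a time gave 5 to 14 calls in DMSO, 7 to 13 under A1331852, 0 to 1 for the drug in WT and 2 to 10 in KO cells, 0 to 1 for the interaction, 7 to 16 in A498 and 7 to 14 for the difference between lines. ADAM9 after the drug in KO cells was near no change without the batch term, at 0.039 (adjusted p = 0.963, edgeR). Its DMSO level differed between batches. The cause of this and the other shifts was not tested. With the replicate block 13 members were called in DMSO, 9 for the drug in KO cells, 0 for the interaction and 15 in A498. The shares of all genes called were 28.6%, 26.5%, 1.81% and 37.7% in the same order. Equal numbers did not pair drug with DMSO libraries (correlations of -0.0492 to 0.0591), and A498 had 2 pairs at 0.0872.

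Low counts limit ADAMTS14, ADAMTSL4, ADAM11, ADAM21 and ADAMTSL1, and the drug comparison within batch 1 rests on 1 DMSO library per genotype.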
